A study of Homo sapiens with 12 samples.

Results

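Gene expression was compared in whole AC16 cells between libraries labelled Ang and libraries labelled Con. AC16 is an established human line obtained by fusing primary ventricular heart cells with SV40-transformed fibroblasts, and it divides in culture. The comparison used every library of whole cells with gene counts, 3 labelled Con and 3 labelled Ang, out of 12 libraries in the series. The other libraries came from the vesicles these cells release and were not used here. All 15381 genes listed in the 6 tables of gene counts were included. Both groups share the cell line and the total RNA preparation, and the labels give no genotype, dose or time. The labels spell out neither Con nor Ang, and the design text of the series speaks of hypertrophic cardiomyocytes and of the RNA that their vesicles carry. Whether the 3 libraries in each group were grown as separate cultures is not stated, and a p-value here measures only how much these libraries varied, which can be technical variation.

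Heart muscle cells enlarge when hormones such as angiotensin II, endothelin or noradrenaline bind receptors coupled to the G protein Gq. The signal runs through phospholipase C, calcium and protein kinase C to the MAP kinases and to calcineurin, which frees the factor NFAT to enter the nucleus. Immediate-early genes, among them FOS, EGR1 and JUN, are transcribed within minutes without new protein synthesis, and their messages decay quickly. Later markers of the enlarged state in heart muscle include the natriuretic peptides NPPA and NPPB and the skeletal actin ACTA1.

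The libraries held 9202471 to 11212674 reads assigned to genes, and 13331 genes had enough reads to be tested. The biological coefficient of variation, the spread of a gene between libraries of 1 group beyond counting noise, was 0.229 in Con and 0.225 in Ang. Correlations of log2 CPM (reads per library total, trimmed mean scaled) across genes had a median of 0.966 between libraries of the same group and 0.965 between libraries of different groups. The first 2 principal components carried 22.2% and 21.3% of the variance. Of 11570 genes whose median over the libraries reached 40 reads, 298 had at least 1 library that lay 4-fold or more under that median, and such genes were spread over all libraries, 50 to 69 in each. In these cells the defining messages of heart muscle were at or near 0: TNNT2, cardiac troponin T, had at most 9 reads in any library, NKX2-5 at most 4, and ACTC1, cardiac actin, at most 5. Of 27 cardiomyocyte markers, 10 had enough reads to be tested, and their summed level was 183.6 to 191.2 CPM in Con and 176 to 195.5 CPM in Ang. GATA4 was present at 26.1 ± 2.55 CPM in Con and 29.1 ± 2.19 in Ang (SD, n = 3 each). The fibroblast messages VIM and COL1A1 had means of 2121 and 3349 CPM in Con. Immune markers were low, with PTPRC at 6 to 25 reads, and the macrophage marker CD68 was at 110 to 167 reads in 5 libraries and at 709 in Ang replicate 3. Of the exon bases of CD68, 81.7% are shared with another gene on that strand, so its reads may belong to either.

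The gene with the smallest p-value was FOS, a subunit of the AP-1 factor, which had 2.62-fold the level in Ang. FJX1, a secreted inhibitor of dendrite growth, followed at 5.31-fold. Among genes lower in Ang, the smallest p-values belonged to MATCAP1, an enzyme that removes the last tyrosine of tubulin, to TBC1D8, a Rab GTPase-activating protein, and to IFT140, a subunit of the transport machinery of cilia. No gene passed an adjusted p of 0.05 in edgeR's quasi-likelihood test (0 of 13331 genes, percent called 0), and the smallest adjusted p was 0.121, shared by FOS and FJX1. At an unadjusted p under 0.05 there were 816 genes, 6.12% of those tested, where 667 would be expected if no gene differed. Of these, 374 were higher in Ang (2.81% of all tested) and 442 lower (3.32%). The 3 Ang libraries lay entirely above the 3 Con libraries for 934 genes (7.01%) and entirely below them for 919 (6.89%). With DESeq2 on the same genes, 50 genes passed an adjusted p of 0.05 (0.375%), 23 higher (0.173%) and 27 lower (0.203%), and in 49 of them the groups did not overlap. The DESeq2 calls below are that tool's calls, and none of them passed with edgeR.

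**Figure D1:**
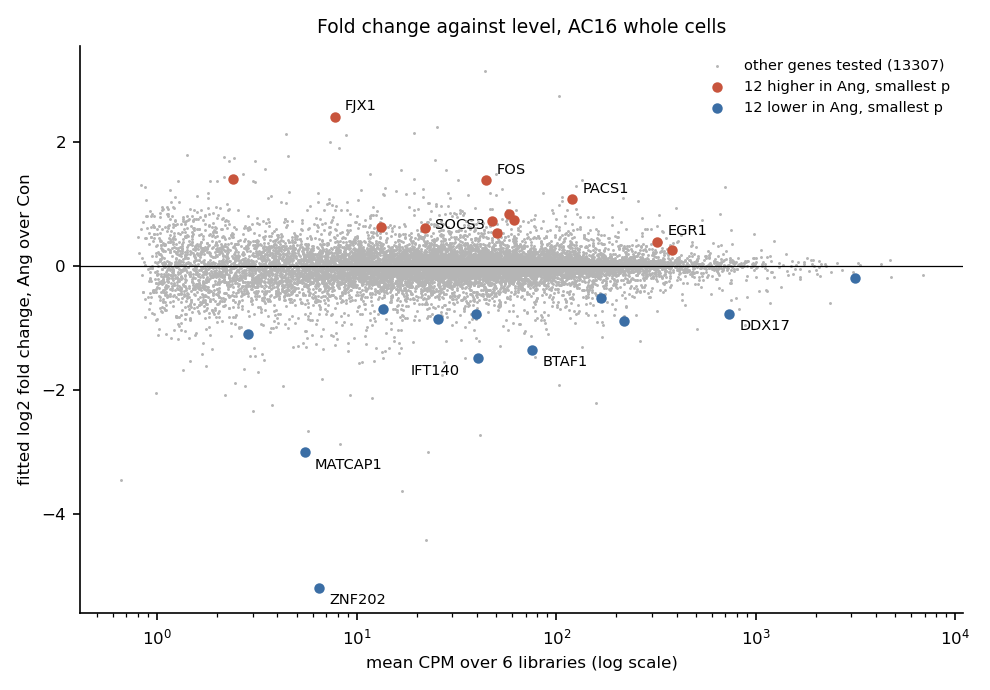
Fitted log2 fold change of Ang over Con against the mean level in CPM (log axis) for the 13331 genes tested in 3 Con and 3 Ang libraries. Points in red and blue are the 12 genes with the smallest p in each direction, and the grey cloud is centred on 0, with a median log2 fold change of -0.0008.

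The size of difference that these libraries leave room for was small for most genes. The 95% interval of the fold change lay inside 2-fold in either direction for 10307 genes (77.3%). The share was 56.3% under 10 CPM, 83.5% from 10 to 100 CPM and 87% at 100 CPM or more. The median absolute log2 fold change was 0.123, against a median standard error (SE) of 0.154. A fold of over 2 was fitted for 197 genes. Of these, 38 had a median of at least 40 reads and a library 4-fold or more under the median of the 6. Among all 11570 genes with that median there were 298 (2.58%). The median spans both groups, so a large difference between the groups can by itself place a library that far under it. The 38 are therefore not a count of single libraries that stood apart. Genes with a lower median were not examined for such a library in this count.

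None of the 12 tested receptors and enzymes of the renin-angiotensin system had an unadjusted p under 0.05, where 6.12% of all genes tested had one. With 12 members, that count is near the share over all genes and does not set the list apart. AGTR1, the type 1 angiotensin receptor that couples to Gq, had 125, 184 and 161 reads in the Con libraries and 136, 161 and 155 in the Ang libraries. The groups overlapped, the log2 fold change was -0.05 (SE 0.158), and its 95% interval was -0.44 to 0.34. Over 12 tested members, fold changes were positive in 3 and negative in 9 (49.8% and 50.2% of all genes tested). The median log2 fold change was -0.05 against 0.00 over all genes tested. ANPEP, an aminopeptidase that trims angiotensin peptides, had the smallest p of the list, with 193 ± 19.4 CPM in Con and 160.1 ± 18.8 in Ang (SD, n = 3 each). AGT, the precursor of all angiotensins, was low, with reads of 14, 21 and 19 in Con against 23, 29 and 23 in Ang.

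The genes between the receptor and the nucleus with a small p were PLCB2, MAPK14 and 4 members of the calcium branch, where 6.12% of all genes tested had an unadjusted p under 0.05. Among 28 genes of Gq, phospholipase C and protein kinase C, 1 had an unadjusted p under 0.05, PLCB2, a phospholipase C of the beta family, with 9.05, 7.64 and 9 CPM in the Con libraries and 6.43, 5.88 and 7.33 in the Ang libraries. The Ang libraries were all lower, with a log2 fold change of -0.39 (SE 0.143). Of 35 members of the MAP kinase cascade, 1 had an unadjusted p under 0.05, the p38 kinase MAPK14, at 78.8 ± 10.7 CPM in Con and 56.2 ± 1.75 in Ang (SD, n = 3 each). Its 3 Ang libraries lay below the 3 Con libraries, and its adjusted p was 0.781 with edgeR and 0.0979 with DESeq2. In the calcium branch, 1 of 31 members was higher and 3 were lower at that level. CALM2, 1 of the genes that encode calmodulin, had 499.7, 577 and 554 CPM in the Con libraries and 620.4, 625 and 606 in the Ang libraries. CABIN1, an inhibitor of calcineurin, had 148, 183 and 164 CPM in the Con libraries and 134, 122 and 108 in the Ang libraries, and the class II histone deacetylase HDAC5 had a fitted log2 difference of -0.18 (SE 0.0642). RCAN1, an NFAT target that reports calcineurin activity, was at 49.2, 58.8 and 51.9 CPM in Con and 55.9, 50.4 and 57.2 in Ang, overlapping, with a 95% interval of the log2 fold change from -0.21 to 0.27.

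Immediate-early transcription factors were the list with the highest median log2 fold change, 0.26, among the lists with at least 10 members tested. Of 29 members tested, 26 had a positive fold change, where 49.8% of all genes tested had one. An unadjusted p under 0.05 was found for 13 higher (against 2.81% of all genes) and for 0 lower, and the same number, 13, were higher without overlap (against 7.01%). No member passed with edgeR, and 3 passed with DESeq2: FOS, EGR1 and ATF3. The levels of the 29 members summed to 1647 to 1780 CPM in Con and to 1951 to 2235 CPM in Ang. The list was written with earlier results of these data known, so its counts describe these libraries and are not an independent test.

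FOS, the partner of JUN in AP-1, lies on chromosome 14, 75278774 to 75282230 (GRCh38, plus strand). It had 213, 228 and 310 reads in the Con libraries and 601, 687 and 648 in the Ang libraries. On the CPM scale that was 22.7, 23.6 and 27.6 CPM in the Con libraries and 65.5, 67.4 and 60.9 in the Ang libraries. Every Ang library was well above every Con library, and the log2 fold change was 1.39 (SE 0.102), with a 95% interval of 1.14 to 1.64. The adjusted p was 0.121 with edgeR and 5.83e-23 with DESeq2. EGR1, a zinc-finger factor of the same first wave, lies on chromosome 5, 138465490 to 138469315 and was the more abundant of these 2 per length, at 102 CPM per kilobase of exon over the 6 libraries against 13.8 for FOS. It had 264, 274 and 289.5 CPM in the Con libraries and 357, 371 and 358 in the Ang libraries. The groups did not overlap, and the log2 fold change was smaller than that of FOS, 0.39 (SE 0.0516), with an adjusted p of 0.449 with edgeR and 1.52e-05 with DESeq2. ATF3, a stress-induced factor that pairs with JUN, had 16.9, 19.01 and 17.8 CPM in the Con libraries and 23.9, 25.01 and 25.6 in the Ang libraries, again without overlap, at a log2 fold change of 0.47 (SE 0.0873) and an adjusted p of 0.0449 with DESeq2. JUN itself had 243, 255 and 213 CPM in the Con libraries and 296, 326 and 458 in the Ang libraries. Its Ang libraries were all higher but more scattered, and its log2 fold change was 0.60 (SE 0.181).

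Other factors with positive fold changes included ones of low abundance, chosen here after their values were seen. EGR3, a relative of EGR1, had 15, 22 and 15 reads in the Con libraries and 32, 38 and 65 in the Ang libraries, which did not overlap, at a log2 fold change of 1.36 (SE 0.327). EGR2 had 22, 12 and 19 reads in the Con libraries and 28, 25 and 47 in the Ang libraries. FOSB, a relative of FOS, had 16, 62 and 40 reads in the Con libraries and 83, 72 and 111 in the Ang libraries. KLF4, a Krüppel-like factor, had 14.6, 12.5 and 13.6 CPM in the Con libraries and 18.9, 19.4 and 19.1 in the Ang libraries, with a log2 fold change of 0.50 (SE 0.0967). These 4 genes were higher in each Ang library than in each Con library, and FOSB and EGR2 had wide intervals, from 0.04 to 2.33 and from 0.08 to 1.74. For CSRNP1, KLF6, ID2, BHLHE40 and KLF10 the Ang libraries were also all higher, with log2 fold changes from 0.16 for KLF6 to 0.34 for CSRNP1. In the remaining members the groups overlapped. SRF, the factor that binds serum response elements, had 55.3 ± 3.16 CPM in Con and 55.9 ± 2.57 in Ang (SD, n = 3 each). FOSL1, the member of the list with the highest level per length, had 509, 356 and 278 CPM in the Con libraries and 301, 557 and 314 in the Ang libraries, with overlapping groups. JUND, MAFK and KLF11 were the 3 members with a negative fold change, and none of them had an unadjusted p under 0.05.

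**Figure D2:**
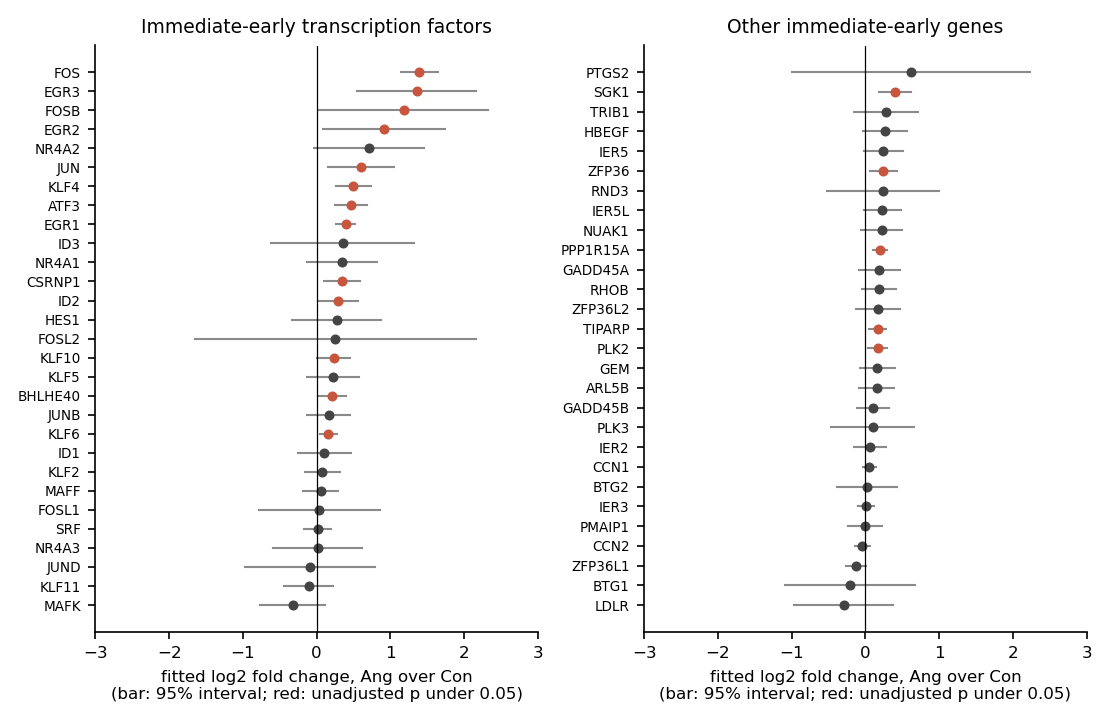
Fitted log2 fold change of Ang over Con (points) with its 95% interval (bars) for 29 immediate-early transcription factors and 28 other immediate-early genes, 3 libraries per group. Red points have an unadjusted p under 0.05, 13 in the first list and 5 in the second, and all of the red points lie above 0.

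The upstream sequences of 3 of these factors are shown to describe the letters before their starts. Any link between these letters and the fold changes was not tested. Each run is the 250 bases before the start of the gene in the RefSeq table (build GRCh38.p14), on the gene's own strand, 5′ to 3′. That start can differ from the GENCODE release 29 start used for the positions above. For FOS the GENCODE start is 75278774, so the end of its run, with TATAAA, lies inside the gene as placed above. Capitals mark matches, on either strand, to TGACG (the core of the cyclic AMP response element, read CGTCA on the other strand), to the CArG box that SRF binds, and to TATAAA.
FOS, chr14:75278578-75278827, plus strand: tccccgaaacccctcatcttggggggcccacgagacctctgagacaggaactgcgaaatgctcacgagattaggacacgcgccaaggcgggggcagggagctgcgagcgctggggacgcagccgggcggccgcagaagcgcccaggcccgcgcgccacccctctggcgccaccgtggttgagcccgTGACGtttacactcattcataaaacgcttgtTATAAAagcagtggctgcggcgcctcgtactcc
EGR1, chr5:138465229-138465478, plus strand: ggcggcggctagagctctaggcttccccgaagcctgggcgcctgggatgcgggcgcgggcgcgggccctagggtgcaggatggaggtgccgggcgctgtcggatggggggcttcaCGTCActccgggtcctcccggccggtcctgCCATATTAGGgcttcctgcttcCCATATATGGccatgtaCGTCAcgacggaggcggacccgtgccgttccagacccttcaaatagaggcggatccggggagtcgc
KLF4, chr9:107489770-107490019, minus strand: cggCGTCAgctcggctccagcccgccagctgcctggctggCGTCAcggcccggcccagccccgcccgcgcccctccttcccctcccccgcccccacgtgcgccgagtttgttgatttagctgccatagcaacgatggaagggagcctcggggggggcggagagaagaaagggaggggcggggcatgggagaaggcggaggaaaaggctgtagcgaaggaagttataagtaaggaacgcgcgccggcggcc
In FOS, TGACG began 64 bases before the start and TATAAA 33 bases before it, and this window held no CArG box. EGR1 held 2 CArG boxes, 105 and 83 bases before the start, between 2 TGACG matches. KLF4 held 2 TGACG matches, 247 and 210 bases before the start, and no CArG box or TATAAA in this window. Over the list, 25 promoters matched the table by symbol, where only the first promoter listed for a gene was taken. The shares beside them are over every promoter in the table, whether or not its gene was tested here. TGACG was found in 14 of them (56%), against 7451 of 35116 promoters of the same length (21.2%). The CArG box was found in 2 (8%), against 1.16%, and TATAAA in 5 (20%), against 10.7%. The full palindrome TGACGTCA, which contains TGACG, was in 2 (8%), against 1.65%, and the AP-1 site TGANTCA was in 0, against 6.57%. Searched as well, but not in capitals, were GCGNGGGCG, the form that EGR factors bind, in 6 (24%), against 8.41%, and the STAT form TTCNNNGAA in 2 (8%), against 6.57%. EGR1 held 1 match to each of these, and KLF4 held 1 to GCGNGGGCG. A match describes letters in the window and shows neither binding nor use.

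Immediate-early genes outside the transcription factors had mostly positive fold changes, with a lower median. Of 28 tested, 23 had a positive fold change (49.8% of all genes). At an unadjusted p under 0.05, 5 were higher and 0 lower (2.81% and 3.32% of all genes), and 10 were higher and 1 lower without overlap (7.01% and 6.89%). None passed with edgeR and 1 with DESeq2. The median log2 fold change was 0.17. PPP1R15A, which directs a phosphatase to the initiation factor eIF2, had 451, 452 and 462 CPM in the Con libraries and 507, 523 and 533 in the Ang libraries, a log2 fold change of 0.19 (SE 0.0392) and an adjusted p of 0.0396 with DESeq2. SGK1, a kinase induced by serum and glucocorticoids, had 54.3, 48.9 and 53.02 CPM in the Con libraries and 74.9, 67.2 and 63.7 in the Ang libraries. TIPARP, an ADP-ribosyltransferase induced by the aryl hydrocarbon receptor, had a fitted log2 difference of 0.17 (SE 0.0467). CCN1, a matrix-associated signalling protein, was at 953 ± 10.7 CPM in Con and 989 ± 26.4 in Ang and CCN2 at 316 ± 7.33 CPM in Con and 306 ± 4.102 in Ang (SD, n = 3 each). Both overlapped between groups, and both intervals were narrow, from -0.03 to 0.14 and from -0.15 to 0.06 on the log2 scale.

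Genes listed as ERK feedback inhibitors, only some of which are transcribed when ERK is active, had no common direction. Of 19 tested, 10 had a positive and 9 a negative fold change, 3 were higher and 0 lower at an unadjusted p under 0.05 (2.81% and 3.32% of all genes), and the median log2 fold change was 0.01. DUSP5, a nuclear phosphatase that acts on ERK, had 22, 38 and 28 reads in the Con libraries and 166, 76 and 104 in the Ang libraries. Each Ang library was above each Con library, the spread within Ang was wide, and the log2 fold change was 2.0 (SE 0.416), with an adjusted p of 0.00482 with DESeq2. ERRFI1, an inhibitor of the EGF receptor, had 59.2, 56.5 and 56.9 CPM in the Con libraries and 69.2, 64.2 and 68.99 in the Ang libraries, and DUSP14 had a fitted log2 difference of 0.21 (SE 0.0722). The member with the highest level per length, PHLDA1, had 372 ± 11.6 CPM in Con and 363 ± 3.304 in Ang (SD, n = 3 each), with overlapping groups.

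Markers of cardiac hypertrophy were low, or their groups overlapped. NPPA, atrial natriuretic peptide, had 14, 11 and 26 reads in the Con libraries and 10, 15 and 10 in the Ang libraries. NPPB had 0, 4 and 3 reads in the Con libraries and 0, 4 and 4 in the Ang libraries and ACTA1 had 2, 0 and 0 reads in the Con libraries and 1, 2 and 5 in the Ang libraries, both under the filter on low counts, so that neither could be tested. ANKRD1, a stress-responsive partner of titin, had 10.7, 8.78 and 9 CPM in the Con libraries and 12.4, 10.2 and 12.3 in the Ang libraries. Its groups overlapped, and its log2 fold change was 0.30 (SE 0.1395), with a 95% interval of -0.05 to 0.64. Over 12 tested members, fold changes were positive in 8 (49.8% of all genes tested). None had an unadjusted p under 0.05 (6.12% of all genes), and for 10 the interval lay inside 2-fold (77.3% of all genes). With 12 members, the last 2 counts are near the shares over all genes and do not set the list apart.

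Of 32 cytoskeletal targets of SRF, 12 had a positive and 20 a negative fold change (49.8% and 50.2% of all genes tested), with a median log2 fold change of -0.01. At an unadjusted p under 0.05, 1 was higher and 2 were lower (2.81% and 3.32% of all genes). Without overlap, 4 were higher and 6 lower (7.01% and 6.89%). Their summed level, which the most abundant members dominate, was 26790 to 27960 CPM in Con and lower in Ang, 25070 to 26290 CPM. FLNA, filamin A, which crosslinks actin, had 3248, 2144 and 3138 CPM in the Con libraries and 1496, 2117 and 2040 in the Ang libraries, all Ang libraries lower, at a log2 fold change of -0.59 (SE 0.208) and an adjusted p of 0.795 with edgeR. Its muscle relative FLNC had 734, 733 and 725 CPM in the Con libraries and 508, 499.7 and 704 in the Ang libraries. ACTG2, enteric smooth muscle actin, had 4.897, 5.37 and 5.26 CPM in the Con libraries and 9.04, 8.63 and 7.14 in the Ang libraries, all Ang libraries higher, at a log2 fold change of 0.67 (SE 0.141). ACTB, the abundant cytoplasmic actin, was at 4217 ± 26.6 CPM in Con and 4303 ± 106 in Ang (SD, n = 3 each). Among 21 YAP and TEAD targets, 2 were higher and 0 lower at an unadjusted p under 0.05 (2.81% and 3.32% of all genes). These 2 were FJX1 and NT5E, a surface nucleotidase. FJX1 had 27, 18 and 29 reads in the Con libraries and 112, 129 and 151 in the Ang libraries, with a log2 fold change of 2.41 (SE 0.189) and an adjusted p of 4.85e-19 with DESeq2. It lies on chromosome 11, 35618419 to 35620868 (GRCh38), and its lowest Con library was over 4-fold under the median of the 6 libraries. That median spans both groups, so the difference between them can give this by itself.

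Collagens and other matrix genes leaned to lower levels. Of 42 tested, 12 had a positive and 30 a negative fold change, where 50.2% of all genes tested were negative. The median log2 fold change was -0.09. At an unadjusted p under 0.05, 1 was higher and 5 were lower (2.81% and 3.32% of all genes), and 2 were higher and 9 lower without overlap (7.01% and 6.89%). COL1A1, the main chain of type I collagen, had 3358, 3361 and 3328 CPM in the Con libraries and 2800, 3040 and 2935 in the Ang libraries. The 3 Ang libraries were all lower, by little: the log2 fold change was -0.20 (SE 0.037) and the adjusted p was 0.781 with edgeR and 0.1 with DESeq2. HSPG2, the basement membrane proteoglycan perlecan, had 536, 543 and 548 CPM in the Con libraries and 434, 485 and 410.1 in the Ang libraries. The 2 higher without overlap were LOXL1 and SPARC. LOXL1, which crosslinks elastin, was the 1 with an unadjusted p under 0.05, at 163, 160 and 166 CPM in the Con libraries and 182, 187 and 186 in the Ang libraries. SPARC, a collagen-binding protein of the matrix, had 884 ± 54.4 CPM in Con and 939.8 ± 10.2 in Ang (SD, n = 3 each). In RNA from a whole culture, fewer cells of a type and less RNA per cell cannot be told apart. The 19 fibroblast markers tested, some of them in this list, summed to 7799 to 8320 CPM in Con and 6904 to 8012 CPM in Ang, and their part in the result was not tested. The transcripts of the list had a median GC content of 51.9%, and the median log2 fold change was -0.08 with the counts corrected for GC content.

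In TGF-beta signalling, 4 of 28 members were higher and 0 lower at an unadjusted p under 0.05 (2.81% and 3.32% of all genes), while the median log2 fold change was 0.00. Among them were GREM1, a secreted BMP antagonist, TGFB3, a ligand, and LOX, which crosslinks collagen. GREM1 had 904, 932 and 928 CPM in the Con libraries and 1011, 992 and 1010 in the Ang libraries. All its Ang libraries were higher, with a log2 fold change of 0.12 (SE 0.0321) and an adjusted p of 0.795 with edgeR. TGFB3 was low, with reads of 35, 49 and 66 in Con against 78, 85 and 69 in Ang.

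Inflammatory mediators differed gene by gene. SOCS3, which blocks signalling by the IL-6 receptor family, had 40.7, 43.1 and 40.01 CPM in the Con libraries and 55.8, 59.8 and 62.98 in the Ang libraries. The groups did not overlap, the log2 fold change was 0.53 (SE 0.0761), and the adjusted p was 0.451 with edgeR and 0.000198 with DESeq2. IL6 itself was low, with reads of 46, 25 and 48 in Con against 34, 30 and 44 in Ang, with overlap. SOD2, the manganese superoxide dismutase of mitochondria, had 84.6, 89.7 and 83.7 CPM in the Con libraries and 42.4, 31.5 and 61.5 in the Ang libraries, all Ang libraries lower, at a log2 fold change of -0.93 (SE 0.244). Over the 33 members tested, 3 were higher and 1 lower at an unadjusted p under 0.05 (2.81% and 3.32% of all genes), and the median log2 fold change was 0.04.

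Of 44 interferon-response genes, 6 were higher and 2 lower at an unadjusted p under 0.05 (2.81% and 3.32% of all genes), and the median log2 fold change was 0.05. DDX60, a helicase of antiviral sensing, had 45.99, 48.5 and 44.8 CPM in the Con libraries and 62.5, 58.5 and 59.1 in the Ang libraries, without overlap, at a log2 fold change of 0.37 (SE 0.0673) and an adjusted p of 0.0214 with DESeq2. IFIT2, which binds viral RNA, had 26.3, 26.9 and 27.5 CPM in the Con libraries and 33.3, 36.6 and 35.6 in the Ang libraries, and OASL had 9.05, 11.5 and 9.89 CPM in the Con libraries and 14.3, 14.6 and 17.7 in the Ang libraries. B2M, the abundant light chain of class I antigen presentation, differed by 0.08 (SE 0.0394) on the log2 scale.

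Members of stress programmes with a small p lay on both sides, with STC2 among the higher and GDF15 among the lower. Of 29 genes of the integrated stress response, 4 were higher and 2 lower at an unadjusted p under 0.05, against 2.81% and 3.32% of all genes. STC2, a secreted glycoprotein induced by ATF4, had 97.7, 97.01 and 83.2 CPM in the Con libraries and 118, 145 and 118 in the Ang libraries, while GDF15, a stress cytokine, had low counts, 29, 35 and 42 in Con against 25, 24 and 24 in Ang. ATF4 had a fitted log2 difference of 0.10 (SE 0.0397). In the unfolded protein response 1 of 26 was higher, HERPUD1, at 55.3 ± 4.38 CPM in Con and 65.6 ± 1.16 in Ang (SD, n = 3 each), and among 27 heat shock genes and chaperones none had an unadjusted p under 0.05. Of 34 antioxidant genes 3 were higher and 1 lower. TXNRD1, thioredoxin reductase, and FTL, ferritin light chain, had log2 fold changes of 0.13 (SE 0.0393) and 0.11 (SE 0.0399). TXNIP, which binds thioredoxin and follows glucose supply, had 399.7, 359 and 378 CPM in the Con libraries and 379.7, 344 and 342 in the Ang libraries, with overlap.

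Genes of protein synthesis and breakdown had small fold changes that were mostly positive. Of 83 cytosolic ribosomal protein genes, 64 had a positive fold change, 6 were higher and 1 lower at an unadjusted p under 0.05 (2.81% and 3.32% of all genes), 21 were higher without overlap (7.01% of all genes) and 1 was lower. Their median log2 fold change was 0.05. RPL13A, the most abundant per length, had 3177 ± 79.1 CPM in Con and 3286 ± 74.5 in Ang (SD, n = 3 each). RPL36 was the lower one, at 111, 128 and 108 CPM in the Con libraries and 72.4, 58.3 and 102 in the Ang libraries. Ribosomal protein genes have many processed copies, and how reads shared with them were counted is not given in the sources used here. Of 46 translation factors, 37 had a positive fold change, with a median log2 fold change of 0.05. EIF5A, which relieves stalled ribosomes, had 287, 264 and 299 CPM in the Con libraries and 333, 324 and 315 in the Ang libraries, and EEF1A1 had a fitted log2 difference of 0.10 (SE 0.0335). Of 37 proteasome subunits, 26 had a positive fold change (49.8% of all genes), 5 were higher and 0 lower at an unadjusted p under 0.05 (2.81% and 3.32%), and the median was 0.08. PSMD1, a scaffold of the regulatory particle, had 179, 193 and 171 CPM in the Con libraries and 237, 218 and 224 in the Ang libraries, with an adjusted p of 0.781 with edgeR. PSMA7, of the core ring, had 291, 287 and 291 CPM in the Con libraries and 320.2, 359 and 342 in the Ang libraries. PSMB2 had 147, 40 and 165 reads in the Con libraries and 395, 451 and 281 in the Ang libraries, with a log2 fold change of 1.72 (SE 0.515), and it is among the genes with a library 4-fold or more under the median of the 6.

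Nuclear genes of the respiratory chain showed the same lean, with 41 of 63 positive (49.8% of all genes), 3 higher and 0 lower at an unadjusted p under 0.05 (2.81% and 3.32%), and a median log2 fold change of 0.04. ATP5PB, of the stalk of ATP synthase, had 84.3, 80.7 and 80.6 CPM in the Con libraries and 94.8, 90.04 and 95.97 in the Ang libraries. UQCRC2, a core subunit of complex III, had a fitted log2 difference of 0.19 (SE 0.0702). In glycolysis, 3 of 40 were higher and 1 lower. GPI, the enzyme that isomerises glucose 6-phosphate, had 140.4, 135 and 104 CPM in the Con libraries and 159, 199 and 160.2 in the Ang libraries. LDHA, lactate dehydrogenase, had a fitted log2 difference of 0.12 (SE 0.0415), and GAPDH was at 2183 ± 43.4 CPM in Con and 2244 ± 25.2 in Ang (SD, n = 3 each). Of 33 genes of mitochondrial biogenesis and fatty acid oxidation, 1 had an unadjusted p under 0.05, ACADVL, which starts the breakdown of very long chains, at a log2 fold change of -0.12 (SE 0.0482).

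**Figure D3:**
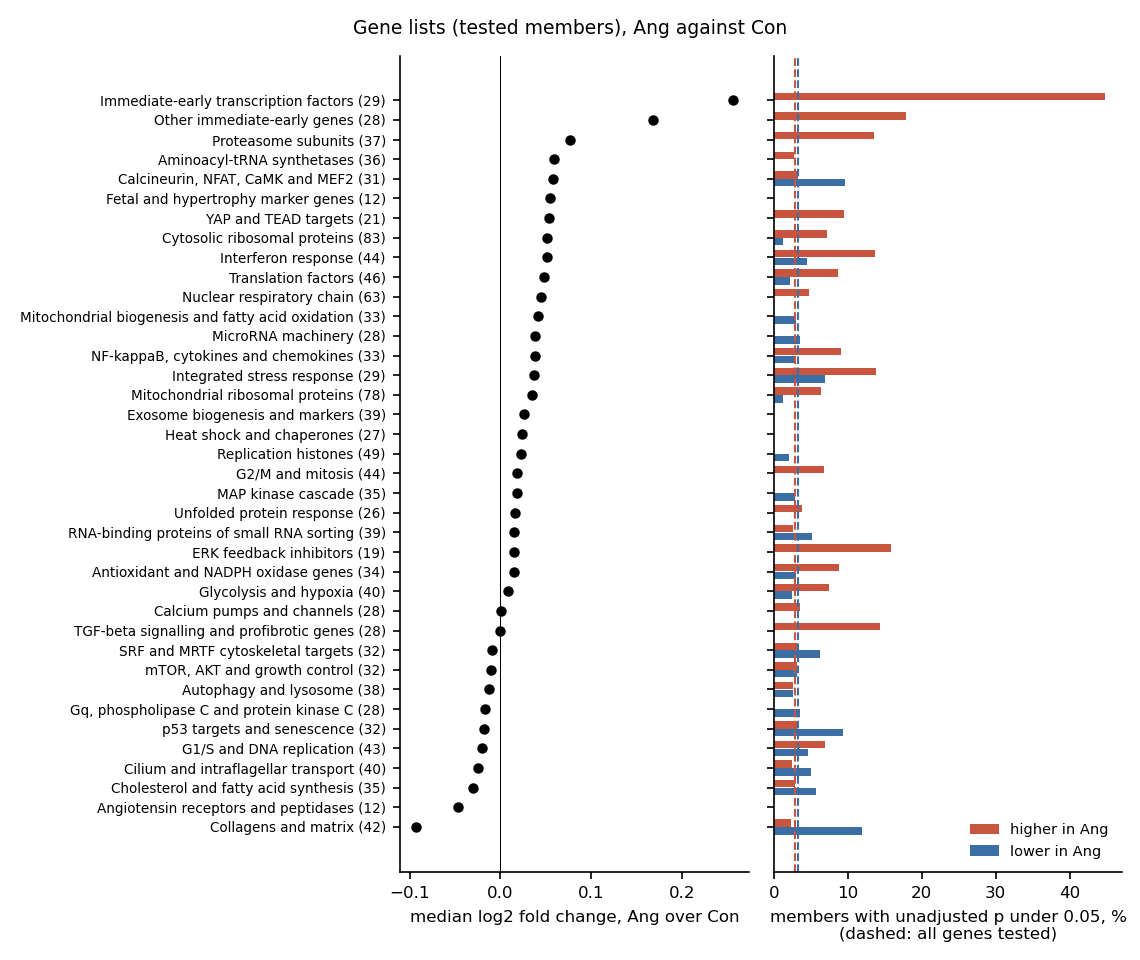
Gene lists with at least 10 members tested, ordered by the median fitted log2 fold change of Ang over Con (left), and the share of members with an unadjusted p under 0.05 in each direction (right, bars from 0), with dashed lines at the shares over all genes tested, 2.81% higher and 3.32% lower. The 2 immediate-early lists stand at 0.26 and 0.17, and the list of collagens and matrix genes is lowest at -0.09.

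Both groups held messages of dividing cells. MKI67, a marker of cycling cells, had 3280 ± 532 CPM in Con and 3336 ± 49.99 in Ang (SD, n = 3 each). CENPA, the histone variant of centromeres, had 29.6, 31.4 and 22.7 CPM in the Con libraries and 44.3, 45.02 and 42.8 in the Ang libraries, without overlap, at a log2 fold change of 0.66 (SE 0.134) and an adjusted p of 0.024 with DESeq2. CCNB1, the mitotic cyclin, had 134, 137 and 117 CPM in the Con libraries and 176, 156 and 158 in the Ang libraries. CCND1, the cyclin of G1 that growth factors induce, had 297, 274 and 297 CPM in the Con libraries and 328, 333 and 345 in the Ang libraries, all Ang libraries higher. CLSPN, of the replication checkpoint, had 118, 251 and 136 CPM in the Con libraries and 310.4, 373 and 358 in the Ang libraries, at a log2 fold change of 1.05 (SE 0.302). Over the lists, 3 of 43 S-phase genes were higher and 2 lower, and 3 of 44 mitotic genes were higher and 0 lower, at an unadjusted p under 0.05 (2.81% and 3.32% of all genes). The replication histone H2AC11 had 2537, 2410 and 2922 reads in the Con libraries and 745, 651 and 258 in the Ang libraries. Its log2 fold change was -2.20 (SE 0.437), with an adjusted p of 0.000483 with DESeq2. The lowest Ang library was over 4-fold under the median of the 6, which spans both groups. The other 48 replication histone genes tested had no unadjusted p under 0.05, and histone genes are near-identical copies whose shared reads may have been counted for any of them.

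The series looked for proteins that carry small RNAs into vesicles. Of 39 RNA-binding proteins reported in that role, 1 was higher and 2 lower at an unadjusted p under 0.05 (2.81% and 3.32% of all genes), and the median log2 fold change was 0.02. DDX17, a helicase that also serves the microRNA processor Drosha, lies on chromosome 22, 38483440 to 38507660 (GRCh38). It had 1010, 801 and 949 CPM in the Con libraries and 572, 499 and 553 in the Ang libraries. All Ang libraries were lower, at a log2 fold change of -0.76 (SE 0.102), a 95% interval of -1.02 to -0.51 and an adjusted p of 0.449 with edgeR and 1.39e-05 with DESeq2. Its close relative DDX5 had 1377, 1210 and 1088 CPM in the Con libraries and 1233, 1142 and 1076 in the Ang libraries, with overlap. NCL, nucleolin, had 1706, 1762 and 1841 CPM in the Con libraries and 1470, 1564 and 1665 in the Ang libraries, and HNRNPA1 had a fitted log2 difference of 0.09 (SE 0.0306). YBX1 was at 1214, 979.8 and 652 CPM in Con and 914, 729 and 1184 in Ang, with overlap and a wide interval of the log2 fold change, from -0.70 to 0.68. None of 39 genes of vesicle formation and none of 28 genes of the microRNA machinery other than DDX17 had an unadjusted p under 0.05. Among the former, SDC4, the syndecan that helps load vesicles, and SDCBP, its partner syntenin, had log2 fold changes of 0.12 (SE 0.0615) and 0.10 (SE 0.0517).

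For the other lists, counts at an unadjusted p under 0.05 stand beside 2.81% of all genes higher and 3.32% lower. Of 78 mitochondrial ribosomal protein genes, 5 were higher and 1 lower at that level. MRPL47 had 17.7, 17.1 and 19.4 CPM in the Con libraries and 24.7, 23.8 and 25.4 in the Ang libraries, while MRPL52 had 25.1, 24.3 and 24.3 CPM in the Con libraries and 17.4, 16.9 and 19.2 in the Ang libraries, and neither pair of groups overlapped. Of 36 aminoacyl-tRNA synthetases 1 was higher, RARS2, the mitochondrial arginyl enzyme, with 38.6, 25.1 and 28.2 CPM in the Con libraries and 54.1, 47.6 and 49.1 in the Ang libraries. In cholesterol and fatty acid synthesis 1 of 35 was higher and 2 were lower, among them HMGCS1, which makes the HMG-CoA of the sterol pathway, with 1488, 1447 and 1465 CPM in the Con libraries and 1406, 1354 and 1389 in the Ang libraries. For p53 targets and senescence the counts were 1 higher and 3 lower of 32, and for mTOR, AKT and growth control 1 and 1 of 32, the lower one being TSC2, a brake on mTOR, with 222, 230.3 and 199.9 CPM in the Con libraries and 166, 179 and 189 in the Ang libraries. Of 38 autophagy and lysosome genes 1 was higher, MAP1LC3B, a marker of autophagosomes, with 54.1, 58.4 and 40.7 CPM in the Con libraries and 72.1, 71.99 and 64.4 in the Ang libraries, and 1 was lower, the receptor OPTN, with 137, 132 and 157 CPM in the Con libraries and 72.8, 96.5 and 114 in the Ang libraries. Of 28 calcium pumps and channels 1 was higher, ATP2B4, a calcium pump of the plasma membrane, with 135, 159 and 154 CPM in the Con libraries and 194, 174 and 165 in the Ang libraries. Among markers of other cells, 1 of 19 fibroblast markers was higher and 1 lower, 0 and 2 of 9 endothelial, 1 and 0 of 11 smooth muscle, 0 and 1 of 9 epithelial, and none of 6 immune markers or of the 1 blood and serum marker tested. The epithelial one was CDH1, E-cadherin, with reads of 81, 44 and 100 in Con against 34, 38 and 35 in Ang.

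The remaining genes with the smallest p-values belonged to no list and differed in function. PACS1, a sorting protein of the trans-Golgi network, had 65.4, 78.1 and 87.5 CPM in the Con libraries and 164, 152 and 171 in the Ang libraries, a log2 fold change of 1.08 (SE 0.1204) and an adjusted p of 1.85e-09 with DESeq2. SCYL2, a coated-vesicle pseudokinase, had 42.2, 37.4 and 44.6 CPM in the Con libraries and 71.1, 82.1 and 68.4 in the Ang libraries, and APPBP2, a substrate receptor of a ubiquitin ligase, had 40.03, 47.9 and 49.01 CPM in the Con libraries and 79.6, 74.7 and 75.01 in the Ang libraries. PRNP, the prion protein, had 351, 355 and 333 CPM in the Con libraries and 409, 422 and 406 in the Ang libraries, a difference of 1.19-fold. BICDL2 was low, with reads of 12, 11 and 17 in Con against 30, 32 and 43 in Ang. The others of the 12 higher genes were ATAD3B, C7orf25 and C11orf24, with log2 fold changes of 0.61 (SE 0.101), 0.62 (SE 0.103) and 0.73 (SE 0.126). Of the exon bases of C7orf25, 61.1% also lie in exons of a second gene of that strand, so its reads may belong to either.

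Among the lower genes, MATCAP1 had 83, 95 and 118 reads in the Con libraries and 15, 7 and 14 in the Ang libraries, a log2 fold change of -3.0 (SE 0.2897) and an adjusted p of 0.262 with edgeR and 2.37e-16 with DESeq2. Its lowest Ang library was over 4-fold under the median of the 6, which spans both groups, so the difference between them can give this by itself. TBC1D8 had 49.1, 49.2 and 50.9 CPM in the Con libraries and 31.9, 27.3 and 28.5 in the Ang libraries. IFT140 had 58.5, 62.5 and 56.9 CPM in the Con libraries and 15.8, 26.2 and 21.7 in the Ang libraries. The list of 40 cilium genes to which IFT140 belongs had 1 higher and 2 lower at an unadjusted p under 0.05 (2.81% and 3.32% of all genes). BTAF1, which removes TATA-binding protein from DNA, had 127, 79.2 and 118 CPM in the Con libraries and 44.01, 41.9 and 41.8 in the Ang libraries. ENPP2, the secreted enzyme autotaxin that makes lysophosphatidic acid, had 35.8, 31.4 and 31.4 CPM in the Con libraries and 20.5, 18.1 and 16.1 in the Ang libraries. FUBP1, a single-strand DNA-binding activator, had 218, 178 and 194 CPM in the Con libraries and 134, 132 and 144 in the Ang libraries. ISYNA1, of inositol synthesis, and NYAP1 had log2 fold changes of -0.68 (SE 0.1202) and -1.10 (SE 0.175). ZBED6, a repressor derived from a transposon, had a fitted log2 difference of -0.89 (SE 0.121), and 96% of its exon bases also lie in exons of a second gene of that strand. In each of these genes all Ang libraries were below all Con libraries.

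**Figure D4:**
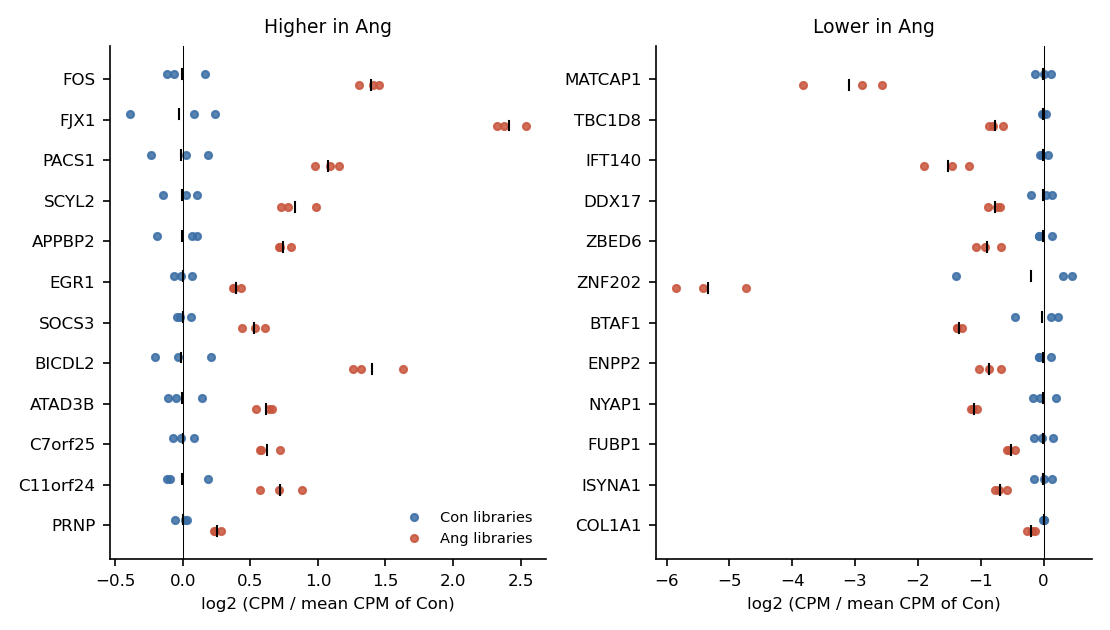
Level in each library, as log2 of CPM over the mean CPM of the 3 Con libraries, for the 12 genes with the smallest p that were higher in Ang (left) and the 12 that were lower (right). Points are single libraries and black ticks are the means of the log2 values, and in each of the 24 genes the 2 groups do not overlap.

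DESeq2 called further genes in both directions. JMJD1C, a jumonji-domain protein of chromatin, had 46.6, 90.2 and 81.9 CPM in the Con libraries and 184, 181 and 171 in the Ang libraries, a log2 fold change of 1.29 (SE 0.2496) and an adjusted p of 0.00265 with DESeq2. ZMIZ1, a transcriptional coactivator, had 32.8, 37.6 and 47.9 CPM in the Con libraries and 73.3, 64.05 and 63.1 in the Ang libraries, and NUP153, of the nuclear basket of the pore, had 89.5, 77.2 and 120.2 CPM in the Con libraries and 171, 176 and 151 in the Ang libraries. TAF1, the largest subunit of TFIID, had 209.9, 318 and 304 CPM in the Con libraries and 146, 146 and 176 in the Ang libraries, with all Ang libraries lower. UBTF, which opens ribosomal DNA for RNA polymerase I, had 254, 215 and 231 CPM in the Con libraries and 133, 115 and 68.9 in the Ang libraries. ZC3H4 and ZC3H18, zinc-finger proteins that act on nascent RNA, and the splicing regulator RBM5 had log2 fold changes of -1.32 (SE 0.2598), -0.52 (SE 0.104) and -0.59 (SE 0.118), with adjusted p-values of 0.0042, 0.0284 and 0.0301 with DESeq2. RAB3B, a GTPase of regulated secretion, had 418, 440.5 and 243 CPM in the Con libraries and 129, 204 and 147 in the Ang libraries. The edgeR adjusted p of each of these genes was 0.781.

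In C1orf216, PTPRS and NBEA, all called by DESeq2, Con replicate 2 stood apart. C1orf216 had 429, 53 and 471 reads in the Con libraries and 20, 34 and 21 in the Ang libraries. PTPRS, a receptor phosphatase, had 743, 84 and 371 reads in the Con libraries and 52, 48 and 51 in the Ang libraries, and NBEA, a scaffold of membrane trafficking, had 576, 12 and 733 reads in the Con libraries and 27, 23 and 9 in the Ang libraries. In these genes that library lay far under the other Con libraries, for NBEA within the range of the Ang libraries, and NBEA was the DESeq2 call whose groups overlapped. Their adjusted p with DESeq2 was 0.000979, 0.0163 and 0.0284.

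In ZNF202, a zinc-finger repressor also called by DESeq2, Con replicate 3 stood apart. It had 147, 167 and 54 reads in the Con libraries and 2, 3 and 5 in the Ang libraries, which gave the largest fitted difference of the leading genes, -5.19 (SE 0.696) on the log2 scale, with an adjusted p of 0.449 with edgeR and 1.85e-09 with DESeq2. Without Con replicate 3, edgeR gave an adjusted p of 0.0304 for ZNF202 and 2 further genes, the only calls in any of the 6 fits that left out 1 library. These were ITGA3, an integrin that binds laminin, with 1642, 1786 and 3962 reads in the Con libraries and 3930, 4217 and 4409 in the Ang libraries, and CYB5R3, a cytochrome b5 reductase, with 1240, 1463 and 6015 reads in the Con libraries and 4780, 5540 and 5321 in the Ang libraries. In both, Con replicate 3 lay far above the other 2 Con libraries and near the Ang libraries. With all 6 libraries their adjusted p was 0.795 and 0.834 with edgeR.

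Fold changes moved with the GC content of the transcript, the share of G and C among its bases. Genes were placed in 5 bins of equal size by GC. In the bin with the lowest GC (30.2 to 40.8%) the median log2 fold change was 0.03, with 99 genes higher and 55 lower at an unadjusted p under 0.05. In the bin with the highest GC (58.3 to 73.9%) the median was -0.06, with 42 higher and 145 lower. In that bin the median log2 deviation from the mean of the 6 libraries was 0.04, 0.05 and 0.04 in the Con libraries and -0.04, 0.00 and 0.01 in the Ang libraries, without overlap. Bins by transcript length had medians between -0.01 and 0.02. The immediate-early transcription factors had a median GC content of 55%, in bin 4 counted from the lowest, where the median log2 fold change was -0.02, and their own median was 0.26 with and without a correction of the counts for GC content. With that correction, chosen after the data were seen, edgeR called 0 genes, 776 had an unadjusted p under 0.05, and FOS had an adjusted p of 0.1001.

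**Figure D5:**
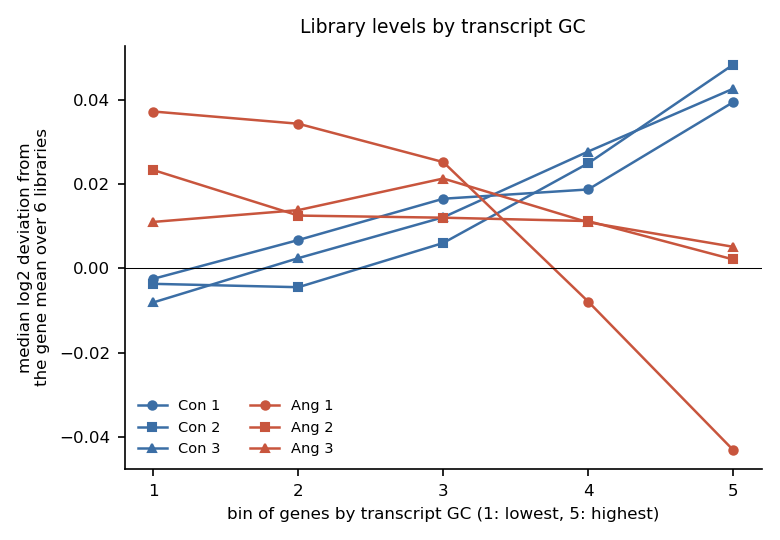
Median log2 deviation of each library from the mean of the 6 libraries, for genes in 5 bins of transcript GC content (1 lowest, 5 highest), with 2663 genes in each. In the highest bin the 3 Con libraries (blue) stand at 0.04 to 0.05 and the 3 Ang libraries (red) at -0.04 to 0.01.

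Totals of the libraries were compared with exact permutation tests. The 100 most abundant genes took 15.8% of the reads in each Con library and 15.5%, 15.5% and 15.4% in the Ang libraries, with an exact two-sided permutation p of 0.1, the smallest that 3 against 3 can give, and 0.4 after Benjamini-Hochberg adjustment over the 4 totals compared. Total reads, genes with at least 1 read and genes with a library far under the median had exact permutation p-values of 0.8 to 0.9.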

How the data were processed

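Per the labels' protocols, total RNA of AC16 cells was isolated with the miRNeasy Micro kit, and libraries were prepared with the VAHTS Universal V6 kit. The authors deposited whole-number counts of reads per Ensembl gene, per the file headers. HISAT2, StringTie and the build GRCh38 are named in the submitters' processing notes. Information on the counting step, strand, annotation and tool versions is not given in the sources used here. Reads of overlapping, antisense and near-identical genes may therefore be shared. The lowest sum of a listed gene over the 6 libraries was 7 reads, and 15344 of 15381 genes were protein-coding. Symbols were found for 15365 genes and GENCODE release 29 positions, counted from 1, for 15362. Mitochondrial genes were not analysed here.

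Genes were kept by filterByExpr (minimum count 10, minimum total 15) and tested with edgeR 4.0.16 in R 4.3.3 (trimmed mean of M-values scaling, robust quasi-likelihood F test, two-sided, 3 against 3 libraries), with Benjamini-Hochberg adjustment over 13331 genes and a threshold of 0.05. Fold changes are fitted values, and 95% intervals use the SE and the total degrees of freedom of the test, residual plus prior. CPM carry the same scaling, and levels between genes are given per kilobase of exon. DESeq2 1.42.0, limma 3.58.1 (voom with quality weights), other scalings and filters, a replicate block, leaving out each library and leaving out genes with a library 4-fold or more under the median were alternatives, and a GC correction in 20 bins was added after the data were seen. With 9202471 to 11212674 reads per library, the median SE of a log2 fold change was 0.269 under 10 CPM and 0.0798 at 100 CPM or more.

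The members, gene lists and tests were chosen with earlier results of these data known. Genes were named if they were among the 12 with the smallest p in each direction, among up to 3 members of a list with the smallest p and up to 2 with the highest level per length, or in a fixed set (FOS, JUN, EGR1, ATF3, NPPA, NPPB, ACTA1, ANKRD1, RCAN1, AGTR1, CCN1, CCN2, IL6 and TXNIP). Some genes that this rule names are not reported here. DESeq2 calls could be named as such. Others were chosen after their values were seen: the low markers TNNT2, NKX2-5 and ACTC1, PTPRC, ITGA3 and CYB5R3, SRF, and the factors KLF4, EGR2, EGR3, FOSB, JUND, MAFK, KLF11, CSRNP1, KLF6, ID2, BHLHE40 and KLF10.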

Additional observations from a re-analysis of the deposited data

How the results depend on the processing

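The count of genes called by edgeR was 0, and it stayed 0 with size factors of DESeq2, with library totals, with no filter, with a minimum count of 50, without robust estimation, with limma-voom, without genes with a library far under the median and with the GC correction. It was 50 with DESeq2, and 0 to 3 when 1 library was left out, with the 3 calls without Con replicate 3 only. Genes at an unadjusted p under 0.05 numbered 667 to 783 when 1 library was left out, against 816. The labels give both groups the replicate numbers 1 to 3. Whether these numbers pair the libraries is not stated. Deviations of libraries with the same number had correlations of -0.0438, -0.0234 and -0.0157. Such values show no shared variation but cannot exclude that libraries with the same number were made together. With a replicate block edgeR called 0 genes and 685 had an unadjusted p under 0.05. Of the 45 gene lists, 28 had a median log2 fold change above 0, and 25 to 30 under the alternatives. The median of the immediate-early transcription factors ranged from 0.20 to 0.29, and that of collagens and matrix genes from -0.10 to -0.07. Of the 54 genes whose fold change is given, 1 changed sign under an alternative: AGTR1 ranged from -0.15 to 0.12 when 1 library was left out, with the positive value without Con replicate 2. Of the 4 differences of totals between Ang and Con, 3 changed sign when 1 library was left out, ranging from -462557 to 422299 reads, from -9 to 45 genes with at least 1 read and from -7.5 to 1.5 genes with a library far under the median, while the share of the 100 most abundant genes kept its sign, at -0.33 to -0.268 percentage points. Depth limits genes under 10 CPM, of which 56.3% had an interval inside 2-fold.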
